A study of Mus musculus with 12 samples.

Results

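Genes of fibroblast activation and transforming growth factor β (TGF-β) signaling were followed through the hearts of mice that express expanded CUG repeat RNA, as in myotonic dystrophy type 1. The 10 genes were taken by symbol as a fixed list: the ligands Tgfb1, Tgfb2 and Tgfb3, the matrix genes Postn, Fn1, Dcn and Lox, the protease inhibitor Timp1, and the fibroblast genes Pdgfra and Tcf21. Each symbol matched 1 of the 51826 entries of the count table. All 10 were measured in each of the 12 libraries, never with fewer than 57 counts, and all 10 passed the filter on low counts in every comparison.

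The libraries were poly(A) RNA-Seq of atria and ventricles from 6 female FvB mice that were 10 weeks old, 3 in each of 4 groups of tissue and genotype. CUG960 +dox mice (V119, V120 and V123) were homozygous for TREDT960I, a transgene in which a tetracycline response element drives a segment of human DMPK with 960 interrupted CTG repeats. They were also hemizygous for MHCrtTA, whose α myosin heavy chain promoter puts the transactivator in cardiomyocytes. MHCrtTA +dox controls (V327, V333 and V334) were hemizygous for MHCrtTA alone. The paper bred the genotypes from separate crosses, so parentage and the repeat transgene cannot be told apart. Both groups received dox from postnatal day 1, so the transactivator and dox were shared and the repeat transgene was not. The repeat RNA is thus made in cardiomyocytes, whereas most of the genes described here are known as genes of cardiac fibroblasts. In bulk tissue, fewer cells of a type and less RNA per cell cannot be told apart. The counts are per gene and do not show which isoform was made.

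The TGF-β ligands are secreted in a latent complex, bound by latent TGF-β binding proteins, and are freed by integrins or proteases. Active ligand assembles a type II and a type I receptor, which phosphorylate the mediators SMAD2 and SMAD3. With SMAD4 these switch on matrix and contractile genes in fibroblasts, and SMAD7 feeds back on the receptor. Tcf21 and Pdgfra mark fibroblasts of the resting heart, and Postn is a known marker of activated fibroblasts after injury.

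Each of the genes is annotated as protein coding in the GRCm38 mouse genome (GENCODE M21). Tgfb1 spans chr7:25687002-25705077 on the plus strand, Tgfb2 chr1:186622792-186705989 on the minus strand and Tgfb3 chr12:86056745-86079041 on the minus strand. Postn spans chr3:54361109-54391037 (plus), Fn1 chr1:71585520-71653200 (minus), Dcn chr10:97479609-97518143 (plus) and Timp1 chrX:20870166-20874735 (plus). Pdgfra spans chr5:75152292-75198215 (plus) and Tcf21 chr10:22817281-22820174 (minus). Exons of Tgfb2, Tgfb3, Fn1, Lox and Pdgfra share up to 456 bases with exons of other annotated genes. Whether strand was used in counting is not given in the sources used here.

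RefSeq entries for the bases before the transcription start (GRCm38.p6) were found for 6 of the 10 genes. They are printed below for the ligand Tgfb2 and for Postn, the genes with the largest differences between tissues in the effect of CUG960, and for Tgfb1, a ligand that passed no test. Each holds the 250 bases before the start, 5′ to 3′ on the strand of the gene. Capitals mark CAGAC, the core of the SMAD binding element, and TATAAA, the TATA box, on either strand.
Tgfb2, chr1:186705990-186706239, minus strand: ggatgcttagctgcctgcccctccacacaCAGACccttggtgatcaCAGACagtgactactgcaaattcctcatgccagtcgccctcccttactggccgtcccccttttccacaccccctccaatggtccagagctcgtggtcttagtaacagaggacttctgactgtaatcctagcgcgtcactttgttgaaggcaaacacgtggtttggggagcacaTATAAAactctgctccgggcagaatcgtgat
Postn, chr3:54360857-54361106, plus strand: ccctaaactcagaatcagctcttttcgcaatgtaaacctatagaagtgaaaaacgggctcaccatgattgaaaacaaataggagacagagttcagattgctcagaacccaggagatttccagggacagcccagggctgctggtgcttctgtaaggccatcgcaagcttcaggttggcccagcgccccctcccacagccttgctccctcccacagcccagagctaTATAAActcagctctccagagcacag
Tgfb1, chr7:25686752-25687001, plus strand: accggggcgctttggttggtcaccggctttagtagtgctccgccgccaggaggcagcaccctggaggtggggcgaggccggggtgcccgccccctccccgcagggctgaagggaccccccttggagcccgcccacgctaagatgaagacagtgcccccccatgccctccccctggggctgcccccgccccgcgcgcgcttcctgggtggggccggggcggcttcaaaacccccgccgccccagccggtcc
Tgfb2 held CAGAC at 221 and 204 bases before the start and TATAAA at 31 bases. Postn held TATAAA at 26 bases before this start, and its other RefSeq start, at position 54359267, had 1 CAGAC and no TATAAA. Tgfb1 held neither. Of the other genes with an entry, Tcf21 held 3 CAGAC, Pdgfra 1 and Timp1 none. Among all 32841 RefSeq promoter windows of this length, 42.2% held CAGAC and 12.4% held TATAAA. Windows of 0 of the 6 genes held TGANTCA, the AP-1 site (6.75% of all windows), or TGACGTCA, the cyclic AMP response element (1.55%). Both strands were searched, no match overlapped another, and a match describes these letters only.

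Depth was between 116127966 and 160676189 counts per library. Levels are given as normalized CPM, which are counts divided by the TMM-scaled library size in the usual units, on 1 scale for the 12 libraries, in the order V327, V333 and V334 for controls and V119, V120 and V123 for CUG960. The labelled tissues were checked by markers. The atrial light chain Myl7 was between 2521 and 3309 CPM in the atrial libraries and at most 19.3 CPM in 5 of the ventricular ones, with 55.9 CPM in ventricles of V123, and the ventricular light chain Myl2 was at most 33.5 CPM in atria and at least 8505 CPM in ventricles. Myh6, the adult cardiac myosin, was between 22810 and 30430 CPM in the 12 libraries, and Tnnt2 (cardiac troponin T) was between 3150 and 8051 CPM. In control atria, V334 stood apart for several of the genes below: its Fn1 was 275 CPM against 125 and 164 CPM, Cyr61 410.5 CPM against 69.1 and 22.7 CPM, and the summed macrophage and leukocyte markers 762 CPM against 416 and 372 CPM. Values without V334 are given for Fn1, Cyr61 and Ctgf.

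Dcn, which encodes the small proteoglycan decorin, was the most abundant of the 10 genes per length in every group. In control atria it was at 202 ± 22.4 CPM per kb of merged exons (SD, n = 3), followed by Fn1 at 16.1 ± 6.68, Tcf21 at 12.8 ± 0.860, Tgfb3 at 11.4 ± 0.773, Postn at 8.88 ± 0.487, Pdgfra at 7.94 ± 0.8435, Timp1 at 5.09 ± 0.808, Tgfb1 at 2.92 ± 0.106, Tgfb2 at 2.88 ± 0.175 and Lox at 0.774 ± 0.0958. Among neighbors in this order, the ranges of Fn1 and Tcf21, Tcf21 and Tgfb3, Postn and Pdgfra, and Tgfb1 and Tgfb2 overlapped. In control ventricles Dcn was at 116.5 ± 6.94 CPM per kb, and the neighbors from Postn (5.76 ± 0.9485) through Pdgfra, Tgfb3 and Fn1 to Tcf21 (4.09 ± 0.178) overlapped in their ranges. Timp1 (0.862 ± 0.312) and Lox (0.463 ± 0.118) came last there. With the longest transcript as the length, Dcn stayed first and Lox last in each group, and the order between them moved by up to 3 places.

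In the controls, most of the genes were higher in atria. In these mice without the repeat transgene, 9 of the 10 genes were lower in ventricles than in atria, with an adjusted P value below 0.05 and at least a 1.5-fold difference, against 18.5% of all 18327 genes tested. Tgfb1 was the exception. The libraries of the chambers did not overlap for any of these 9 genes, and 32.9% of all genes were lower in ventricles without overlap.

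**Figure D1:**
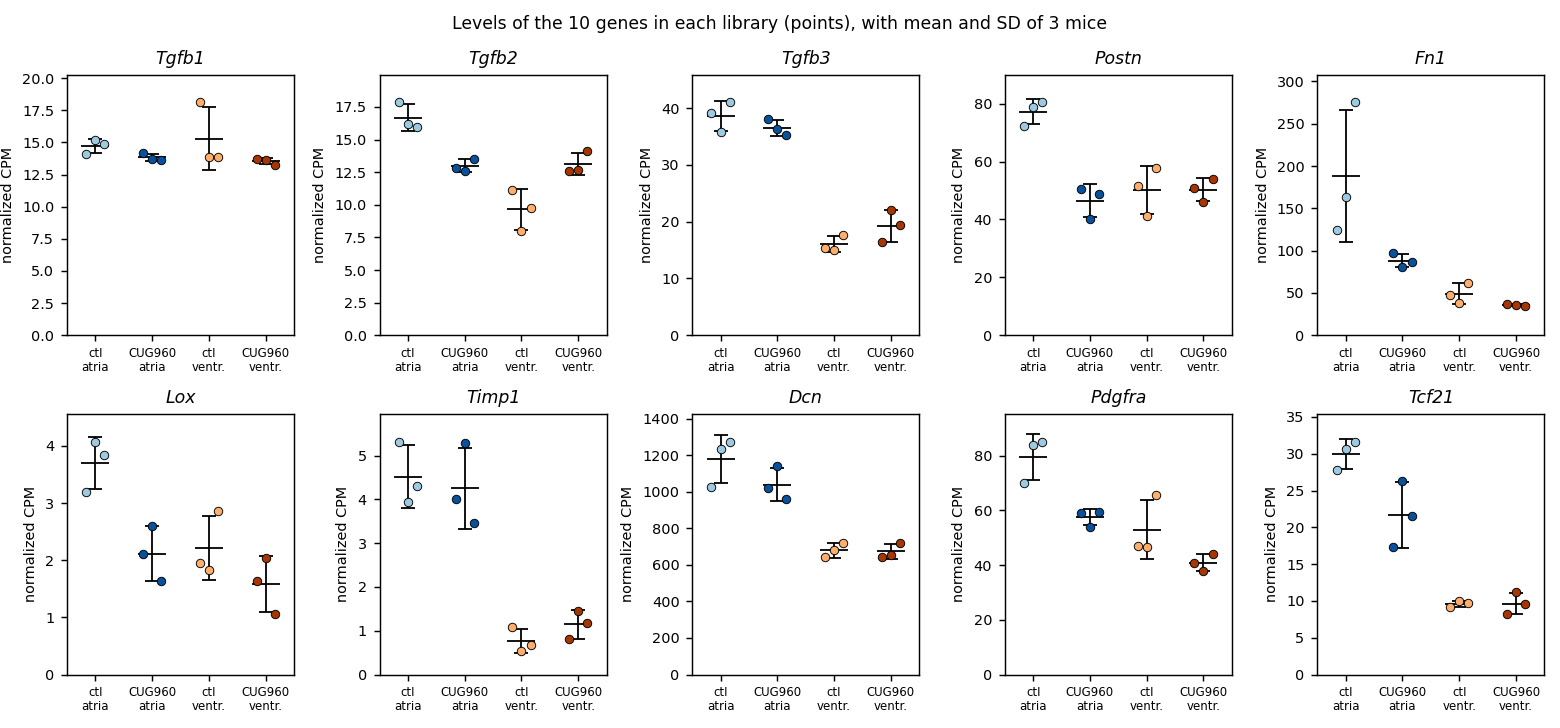
Normalized CPM (y axis, from 0) of each of the 10 genes by group (x axis), with 1 point per library and the mean and SD of 3 mice as bars. Dcn ranged from 640 to 1273 CPM, control V334 is the high point of Fn1 in atria at 275 CPM, and Postn and Tgfb2 of CUG960 atria lie below every control atrial library.

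The largest chamber difference in controls was that of Timp1, an inhibitor of matrix metalloproteinases, which was 5.89-fold lower in ventricles (log2 fold change -2.56 ± 0.28, where ± is the SE for every log2 fold change, adjusted P = 4.84e-06). Its level was 5.32, 3.93 and 4.305 CPM in control atria and 1.075, 0.541 and 0.678 CPM in the ventricles of the same mice. Fn1, fibronectin, was 3.82-fold lower in ventricles (-1.93 ± 0.24, adjusted P = 1.7e-05), and Tcf21, a transcription factor of the epicardial and fibroblast lineage, 3.12-fold lower (-1.64 ± 0.14, adjusted P = 6.12e-07). Tgfb3 was 2.42-fold lower, with 39.15, 35.8 and 41.0 CPM in atria and 15.4, 14.95 and 17.6 CPM in ventricles (-1.27 ± 0.10, adjusted P = 3.31e-07). Of the remaining genes lower in ventricles, the log2 fold changes were -0.79 for Dcn and for Tgfb2, -0.74 for Lox, -0.62 for Postn and -0.59 for Pdgfra. The ligands thus differed in chamber pattern, since Tgfb1 did not pass (log2 fold change 0.06 ± 0.095, 95% interval -0.15 to 0.26). Postn and Pdgfra were not called without V333, Pdgfra not without V119, and Lox not without V327 or V333 (adjusted P up to 0.176). Pdgfra also came under the fold limit by DESeq2, with RLE size factors and in the fit of the 6 control libraries alone (-0.57, -0.57 and -0.58), which leaves 8 of the 10 genes.

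In CUG960 hearts, 5 of the 10 genes were lower in ventricles (17.3% of all genes): Timp1 (-1.89 ± 0.27), Fn1 (-1.28 ± 0.24), Tcf21 (-1.17 ± 0.14), Tgfb3 (-0.92 ± 0.10) and Dcn (-0.62 ± 0.095). Dcn fell under the fold limit without V120 (-0.53). Pdgfra had an adjusted P of 0.00463 but a 1.41-fold difference, under the fold limit. Tgfb2 had a log2 fold change of 0.02 ± 0.11 (95% interval -0.21 to 0.24) and Postn of 0.11 ± 0.12 (-0.14 to 0.37), with overlapping chambers. The CPM scale matters here: without scaling beyond library size, the median of all genes moved by -0.45 between chambers in controls and by -0.38 in CUG960. On that scale Tgfb2 and Postn in CUG960 hearts (-0.37 and -0.27) and Tgfb1 in controls (-0.40) turned to lower in ventricles, and no other chamber difference of the 10 genes changed sign.

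**Figure D2:**
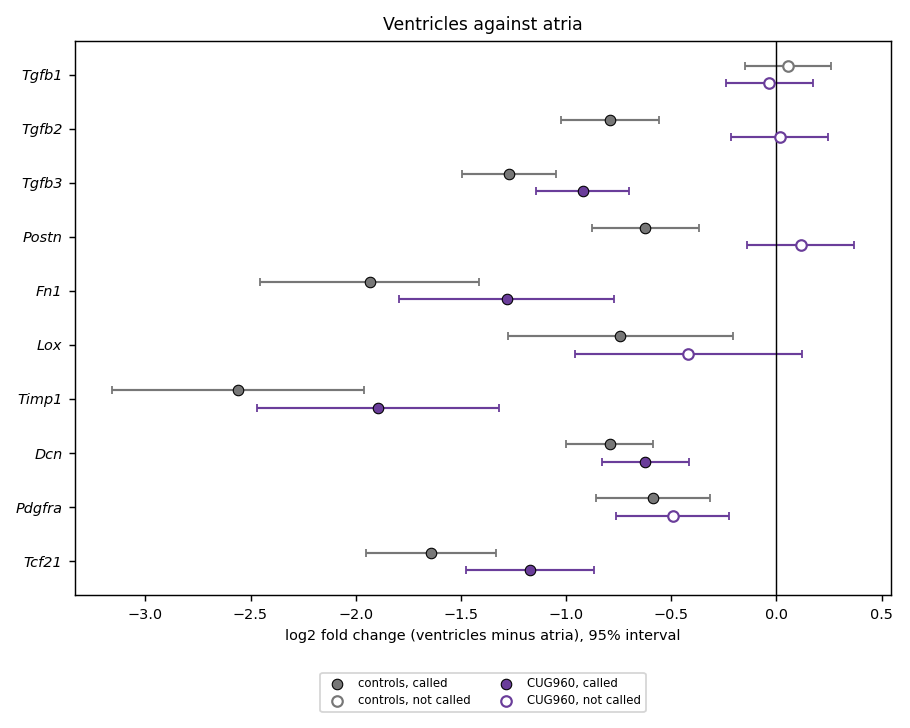
Log2 fold change between ventricles and atria (x axis, negative is lower in ventricles) for each gene in controls (gray) and in CUG960 mice (purple), with 95% intervals; filled points passed the adjusted P value and the fold limit. In controls 9 genes are filled, in CUG960 mice 5, and Tgfb2 and Postn sit near 0 in CUG960 mice.

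The difference between CUG960 and control mice was then examined in each tissue. In atria, the matrix genes Postn, Fn1 and Lox fell in CUG960 +dox mice compared with MHCrtTA +dox controls, by 1.66-fold, 2.13-fold and 1.75-fold. Pdgfra and Tgfb2 were lower at an adjusted P value under 0.05 by less than the fold limit. Tgfb1, Tgfb3, Timp1, Dcn and Tcf21 did not pass. Thus 3 of the 10 genes were called, all lower, where 5.49% of the 17650 genes tested were called in either direction and 2.12% as lower. Without V334, 2 of the 10 were called, Postn and Fn1, against 4.27% of all genes. Without the fold limit 5 of the 10 passed, all lower (14.6% of all genes in either direction, 6.62% lower). The atrial groups did not overlap for 6 of the 10 genes, each lower in CUG960, where 35.7% of all genes did not overlap in either direction and 17.2% were lower in that way. All 10 log2 fold changes in atria were below 0, with a median of -0.41 against -0.0088 for all genes tested. Marker lists of other cell types, described below, also had medians below 0 in atria, except atrial cardiomyocyte markers (0.01). Those medians ran from -1.06 (adipocyte) to -0.07 (Schwann cell), with -0.33 for endothelial and -0.34 for smooth muscle and pericyte markers.

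Postn, the matricellular protein periostin, was at 72.45, 78.9 and 80.4 CPM in control atria and at 50.5, 40.05 and 48.9 CPM in CUG960 atria. Every CUG960 library was below every control library. The log2 fold change was -0.73 ± 0.095 (SE, adjusted P = 0.00262 by the edgeR quasi-likelihood test after Benjamini-Hochberg adjustment), and Postn was called with each of the 6 mice left out in turn.

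Fn1 was at 125, 164 and 275 CPM in control atria and at 96.7, 80.9 and 86.9 CPM in CUG960 atria. The groups did not overlap, and the controls were spread widely, with V334 the highest. The log2 fold change was -1.09 ± 0.25 (adjusted P = 0.025) with V334 and -0.71 (adjusted P = 0.0142) without it. It was not called without V119, V120 or V123 (adjusted P up to 0.0935).

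Lox, the lysyl oxidase that cross-links collagen and elastin, was at 3.19, 4.07 and 3.83 CPM in control atria and at 2.12, 2.60 and 1.63 CPM in CUG960 atria, without overlap. It was the least abundant of the 10 per length. Its log2 fold change was -0.81 ± 0.19 (adjusted P = 0.025), and it was not called without V119, V333 or V334 (adjusted P up to 0.0845).

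Pdgfra, the receptor for platelet-derived growth factor that fibroblasts carry, was at 69.8, 83.8 and 85.1 CPM in control atria and at 59.2, 54.1 and 59.2 CPM in CUG960 atria. The groups did not overlap, and the difference was 1.38-fold (log2 fold change -0.47 ± 0.088, adjusted P = 0.0113), which was lost without V120 (adjusted P = 0.0501). Tcf21 was at 27.7, 30.6 and 31.6 CPM in controls and at 17.3, 26.3 and 21.5 CPM in CUG960 atria. It too did not overlap, with a log2 fold change of -0.47 ± 0.14 and an adjusted P of 0.0567, and it was called without V120 (-0.63, adjusted P = 0.0231). Dcn was at 1028, 1232 and 1273 CPM against 1018, 1139 and 959 CPM, and these groups overlapped (-0.18 ± 0.099, adjusted P = 0.26).

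Of the ligands, Tgfb2 was at 17.8, 16.2 and 15.99 CPM in control atria and at 12.8, 12.6 and 13.5 CPM in CUG960 atria. All CUG960 libraries were below all controls, by 1.28-fold (log2 fold change -0.36 ± 0.073, adjusted P = 0.0151). Its adjusted P rose to 0.0562 without V119 and to 0.0556 without V120. Tgfb1 was at 14.1, 15.2 and 14.9 CPM against 14.2, 13.7 and 13.7 CPM (-0.09 ± 0.066, adjusted P = 0.406, 95% interval -0.24 to 0.06). Tgfb3 was at 39.15, 35.8 and 41.0 CPM against 38.0, 36.4 and 35.2 CPM (-0.08 ± 0.068, 95% interval -0.24 to 0.08). Timp1, at 5.32, 3.93 and 4.305 CPM against 4.01, 5.28 and 3.47 CPM, overlapped between the genotypes (-0.09 ± 0.18).

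In ventricles, none of the 10 genes passed. The count was 0 of 10 where 4.75% of the 16909 genes tested were called, and also 0 without the fold limit (9.94% of all genes). By edgeR's test 4 of the 10 had an unadjusted P under 0.05 (Tgfb2, Fn1, Pdgfra and Tgfb3), as did 25.7% of all genes. By DESeq2 none was called with the fold limit either (5.68% of all genes), and without it Tgfb2 (adjusted P = 0.0105), Fn1 (0.0278) and Pdgfra (0.0446) passed, beside 15.2% of all genes. The groups did not overlap for Tgfb2, Tgfb1, Pdgfra and Fn1, 4 of 10 where 31.2% of all genes did not overlap. The median log2 fold change of the 10 was -0.0023, beside -0.0094 for all genes, with 5 below 0.

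Tgfb2 was the 1 gene of the 10 whose ventricular libraries were all higher in CUG960 mice than in every control. It was at 11.1, 8.03 and 9.765 CPM in controls and at 12.6, 12.7 and 14.1 CPM in CUG960 ventricles, a log2 fold change of 0.45 ± 0.13 with an adjusted P of 0.055. Tgfb3 was at 15.4, 14.95 and 17.6 CPM against 16.4, 22.1 and 19.4 CPM (0.27 ± 0.12, adjusted P = 0.193). Tgfb1 was at 18.1, 13.9 and 13.9 CPM against 13.7, 13.6 and 13.25 CPM (-0.18 ± 0.12, adjusted P = 0.387). These groups of Tgfb1 were separate by a small margin and its spread came from control V327.

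Postn was at 51.4, 41.3 and 57.7 CPM in control ventricles and at 50.9, 46.2 and 53.9 CPM in CUG960 ventricles. The CUG960 libraries lay within the range of the controls, and the log2 fold change was 0.01 ± 0.12 (95% interval -0.26 to 0.27). Fn1 was at 48.0, 37.6 and 61.8 CPM against 37.45, 36.3 and 35.0 CPM (-0.44 ± 0.15, adjusted P = 0.101), and it was called without V333 (-0.60, adjusted P = 0.0178) and was at -0.24 without V334. Pdgfra was at 46.9, 46.4 and 65.6 CPM against 40.9, 37.7 and 44.0 CPM (-0.37 ± 0.13, adjusted P = 0.113). Tcf21, at 9.14, 9.94 and 9.75 CPM against 8.20, 11.2 and 9.57 CPM, overlapped (0.01 ± 0.12), as did Dcn, at 640, 679 and 721 CPM against 645, 655.5 and 722 CPM (-0.01 ± 0.085). Without scaling beyond library size the median of all genes in ventricles moved by 0.109, and Dcn was then at 0.095 and the only gene of the 10 to change sign. Timp1 was at 1.075, 0.541 and 0.678 CPM against 0.8025, 1.46 and 1.175 CPM, with the widest interval of the 10 (log2 fold change 0.58, 95% interval -0.12 to 1.28). Lox was at 1.94, 1.83 and 2.86 CPM against 1.64, 2.04 and 1.06 CPM (-0.48 ± 0.26, adjusted P = 0.286).

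Whether the effect of CUG960 differed between the tissues was tested by an interaction term, tissue by genotype, over all 12 libraries. Tgfb2 passed: its log2 fold change was higher in ventricles than in atria by 0.81 ± 0.15 (adjusted P = 0.0234), since it was lower than control in atria and higher in ventricles. That is 1 of the 10 genes, where 1.38% of 18327 genes passed. Postn followed with a difference of 0.74 ± 0.17 (adjusted P = 0.0507). Since the tissues came from the same mice, the mouse was also used as a block. In that fit Tgfb2 (adjusted P = 0.014), Postn (0.0268) and Tcf21 (0.47 ± 0.20 without the block, adjusted P = 0.355, and 0.0454 with it) passed, so that the count rose from 1 to 3, where 1.82% of all genes passed. Postn also passed by DESeq2 (adjusted P = 0.00201). The call of Tgfb2 was lost on leaving out any 1 of V119, V120, V123, V333 or V334 (adjusted P between 0.0337 and 0.107 over the 6 mice left out), with a difference between 0.72 and 0.87 throughout. The other genes did not pass the adjusted P value. Their 95% intervals of the difference, which are not adjusted for the number of genes tested, were 0.04 to 0.66 for Tgfb3, which leaves out 0, -0.06 to 1.36 for Fn1, -0.14 to 1.47 for Timp1 and -0.43 to 1.08 for Lox. For Dcn the interval was -0.12 to 0.46, for Pdgfra -0.29 to 0.47 and for Tgfb1 -0.38 to 0.20.

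**Figure D3:**
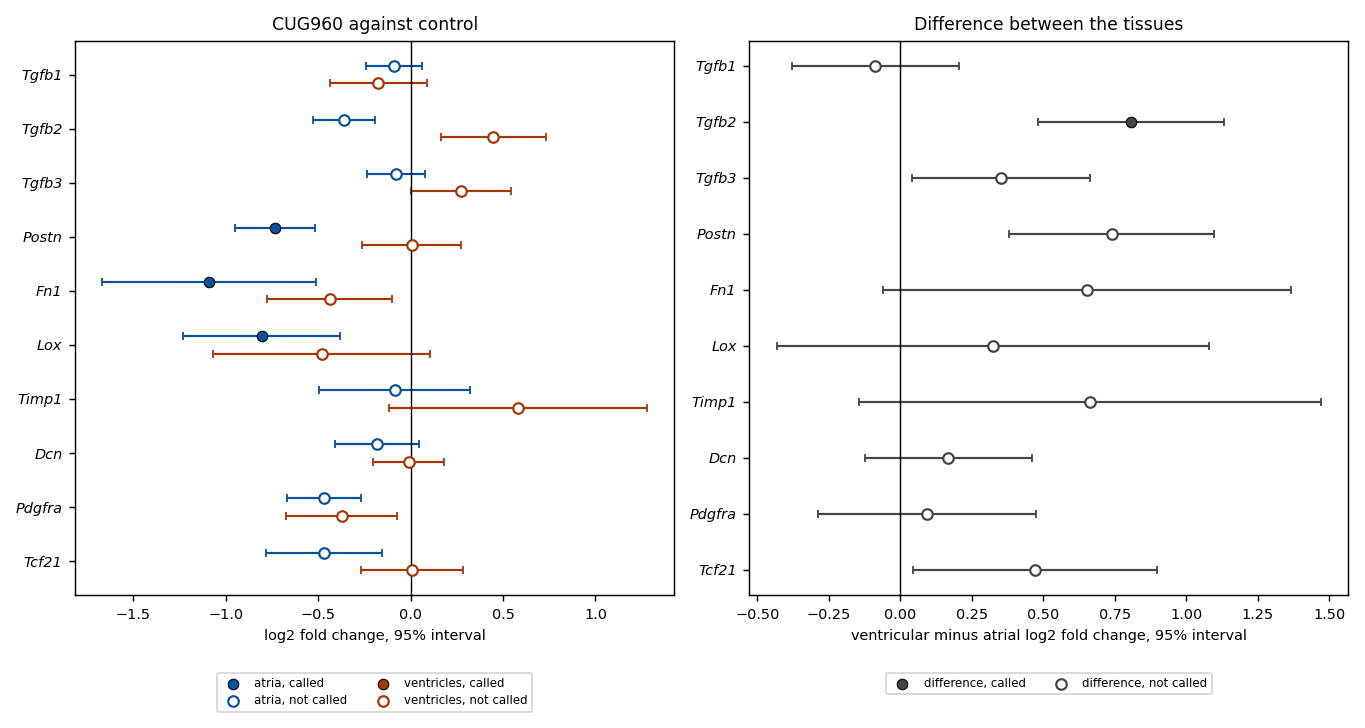
Left, log2 fold change of CUG960 against control (x axis) for each gene in atria (blue) and ventricles (brown); right, the ventricular minus the atrial log2 fold change; bars are 95% intervals and filled points passed. Postn, Fn1 and Lox are filled in atria, none in ventricles, and Tgfb2 alone is filled on the right.

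Around the 10 genes, 117 other genes of TGF-β signaling, fibroblasts and matrix were read from lists chosen with earlier results of these data known. In atria 3 of them rose (2.56%, where 3.37% of all genes rose), 13 fell (11.1%, against 2.12% of all genes) and 101 were not called, with a median log2 fold change of -0.29. In ventricles 4 rose (3.42%, where 3.0% of all genes rose), 3 fell (2.56%, against 1.76% of all genes) and 110 were not called, with a median of -0.05. The ventricular shares were near those of all genes.

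Among 13 genes of TGF-β storage and activation, 1 was called in atria: Itgb6, a subunit of an integrin that frees latent TGF-β, fell from 10.9, 10.52 and 11.1 CPM to 5.09, 3.45 and 4.29 CPM (log2 fold change -1.34 ± 0.14, adjusted P = 0.000984). The median of the list was -0.35 in atria and -0.09 in ventricles, where 0 of the 13 were called. With a mouse left out, between 1 and 3 of the 13 were called in atria and between 0 and 2 in ventricles. Ltbp1, a latent TGF-β binding protein, passed the interaction (0.69 ± 0.12, adjusted P = 0.0156). It was at 45.55, 53.1 and 51.5 CPM in control atria and 40.2, 38.7 and 39.5 CPM in CUG960 atria, and at 46.2, 43.1 and 48.1 CPM in control ventricles and 66.1, 55.5 and 53.8 CPM in CUG960 ventricles. The call of Ltbp1 was lost without V119, V120 or V333 (adjusted P up to 0.0888). The log2 fold changes of Ltbp2 were -0.29 ± 0.18 in atria and 0.22 ± 0.22 in ventricles.

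Of 6 TGF-β receptor genes, 1 rose in atria, none fell there, and 1 fell in ventricles. The gene that rose was Bambi, a receptor-like protein without a kinase domain that dampens signaling, from 24.3, 24.3 and 25.2 CPM to 39.6, 42.7 and 38.45 CPM (log2 fold change 0.71 ± 0.061, adjusted P = 0.000434). In ventricles the value of Bambi was 0.57 ± 0.16 (adjusted P = 0.0575), and without V119 it was called there (0.76, adjusted P = 0.00543). Eng, endoglin, a coreceptor of endothelial cells, fell in ventricles (-0.60 ± 0.075, adjusted P = 0.00161), and was under the fold limit without V119, V327 or V334. The log2 fold changes of the type I receptor Tgfbr1 were -0.17 ± 0.099 in atria and -0.0017 ± 0.12 in ventricles. The type II receptor Tgfbr2 was lower in atria by less than the fold limit (-0.31 ± 0.054, adjusted P = 0.00929), with -0.25 ± 0.092 in ventricles, and Tgfbr3, betaglycan, was at -0.29 ± 0.15 and -0.10 ± 0.097. None of 11 SMAD mediators and inhibitors was called in either tissue, while without V327 Pmepa1, a SMAD target that dampens signaling, was called in atria (-0.60, adjusted P = 0.00329). For Smad7, the inhibitory SMAD, the log2 fold changes were -0.17 ± 0.097 in atria and -0.04 ± 0.11 in ventricles.

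Of 15 further TGF-β target genes, 1 rose and none fell in atria, and 1 fell and none rose in ventricles. Both calls were Tagln, transgelin, an actin-binding protein of smooth muscle that also stands in the smooth muscle list, and it passed the interaction with the opposite sign to Tgfb2 (-1.85 ± 0.40, adjusted P = 0.0445). Tagln was at 32.3, 17.1 and 18.03 CPM in control atria and 48.5, 34.45 and 73.2 CPM in CUG960 atria, and at 46.8, 30.8 and 40.1 CPM in control ventricles and 21.6, 30.55 and 23.7 CPM in CUG960 ventricles. Its calls in atria and for the interaction were lost without V119, V123, V333 or V334 (adjusted P up to 0.113 and 0.169), and in ventricles without V119, V123, V327 or V334 (up to 0.143). The fibrillar collagens had log2 fold changes in atria of -0.26 ± 0.11 (Col1a1), -0.37 ± 0.089 (Col1a2, adjusted P = 0.0306, under the fold limit) and -0.28 ± 0.098 (Col3a1), and in ventricles of 0.29 ± 0.13, 0.04 ± 0.099 and 0.15 ± 0.11. Acta2, smooth muscle actin and a marker of myofibroblasts, did not pass in either tissue (0.33 ± 0.24 and 0.24 ± 0.22). Ctgf and Cyr61, matricellular genes, had atrial log2 fold changes of -0.94 ± 0.46 and -2.68 ± 0.89 (adjusted P = 0.205 and 0.0817). Without V334 they were at -0.55 and -0.81 (adjusted P = 0.487 and 0.245), and over the 6 mice left out they ranged from -1.35 to -0.55 and from -3.20 to -0.81. Cyr61 was called without V333 (adjusted P = 0.0238). V334 was the highest atrial library of both, with 829 CPM of Ctgf against 135 to 570 CPM in the other atrial libraries. In ventricles Ctgf and Cyr61 were at 0.62 ± 0.23 and -0.19 ± 0.13, without a call, except that Ctgf was called without V123 (adjusted P = 0.0482). Tnc, tenascin C, was at -0.03 ± 0.34 in atria and 0.71 ± 0.31 in ventricles.

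Among 22 genes of fibroblast activation, 1 rose and 5 fell in atria, while 4 rose and none fell in ventricles. With a mouse left out, between 1 and 4 of the 22 were called in atria and between 3 and 5 in ventricles. Sfrp2, a secreted modulator of Wnt signaling, was called in opposite directions. In atria it was at 3.365, 4.31 and 3.635 CPM in controls and 1.95, 2.82 and 2.31 CPM in CUG960 mice (-0.68 ± 0.17, adjusted P = 0.031), and in ventricles at 0.596, 0.712 and 0.848 CPM and 1.495, 2.29 and 1.815 CPM (1.38 ± 0.23, adjusted P = 0.00655). It passed the interaction (2.05 ± 0.28, adjusted P = 0.00417). Its atrial call was lost without V119, V123, V333 or V334 (adjusted P up to 0.108), while its ventricular and interaction calls held with each mouse left out. Wisp1, a matricellular protein of the Ctgf family, rose in both tissues, by 0.61 ± 0.15 in atria (adjusted P = 0.0289) and from 3.21, 2.60 and 3.55 CPM to 7.96, 8.12 and 9.80 CPM in ventricles (1.47 ± 0.15, adjusted P = 0.00049). The atrial call of Wisp1 held only without V333 (adjusted P up to 0.0698 over the 6 mice left out), and the ventricular call held with each mouse left out. Wisp2, of the same family, rose in ventricles from 1.455, 1.57 and 2.50 CPM to 5.38, 7.12 and 9.44 CPM (1.99 ± 0.25, adjusted P = 0.00185). The genes that fell in atria included Lgals3, galectin 3 (-1.20 ± 0.16, adjusted P = 0.00306), which passed the interaction (1.17 ± 0.24, adjusted P = 0.0321), and Meox1, a transcription factor of activated fibroblasts (-0.65 ± 0.13, adjusted P = 0.0166). The interaction call of Lgals3 was lost with each of the 6 mice left out (adjusted P up to 0.15), and the atrial call of Meox1 without V119, V123 or V333 (up to 0.0648). In ventricles the value of Meox1 was -0.24 ± 0.11. Cilp and Cthrc1, both known from matrix-producing fibroblasts, were not called (-0.77 ± 0.32 and -0.32 ± 0.22 in atria, 0.86 ± 0.25 and 0.04 ± 0.57 in ventricles). Cilp was called in ventricles without V334 (1.09, adjusted P = 0.0425) and passed the interaction without V333 (1.59, adjusted P = 0.0351).

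Of 22 genes of fibroblast identity, 4 fell and none rose in atria, with 21 log2 fold changes below 0 and a median of -0.33. The 4 included Pi16, a marker of adventitial fibroblasts, which went from 49.3, 45.3 and 71.8 CPM to 26.25, 35.8 and 28.7 CPM (-0.88 ± 0.18, adjusted P = 0.0165), Cd248, the stromal protein endosialin (-0.81 ± 0.13, adjusted P = 0.00551), and Medag (-0.59 ± 0.078, adjusted P = 0.00273). The call of Pi16 was lost without V119 or V123 (adjusted P up to 0.0714), and Medag was under the fold limit without V119, V333 or V334. In ventricles none of the 22 was called and the median was -0.15. With a mouse left out, between 1 and 5 of the 22 were called in atria and 0 in ventricles. The summed level of this list was 7705, 8818 and 8906 CPM in control atria and 7109, 7801 and 6539 CPM in CUG960 atria, so that the groups overlapped, and Gsn, its most abundant gene, made up 64.9% of the mean sum in control atria and 67.5% in CUG960 atria.

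Of 35 genes of matrix cross-linking and turnover, 4 fell and none rose in atria, and none was called in ventricles. With a mouse left out, between 2 and 4 of them were called in atria and between 0 and 3 in ventricles. The ventricular calls included Nid1 without V333 (-0.64, adjusted P = 0.034). The genes that fell in atria included the elastic fiber gene Eln (-0.87 ± 0.14, adjusted P = 0.00547), the basement membrane gene Nid1 (-0.68 ± 0.14, adjusted P = 0.0156) and the proteoglycan Vcan (-0.67 ± 0.096, adjusted P = 0.00384). Nid1 was not called without V119, V120 or V334 (adjusted P up to 0.0701), and Eln and Vcan were called with each mouse left out. Of 6 other PDGF ligand and receptor genes, none was called in atria. Pdgfd, a ligand of the β receptor, fell in ventricles from 14.8, 13.7 and 16.8 CPM to 9.02, 9.60 and 9.54 CPM (-0.68 ± 0.10, adjusted P = 0.00383). Pdgfa, a ligand of the α receptor, differed by -0.15 ± 0.092 in atria and 0.11 ± 0.11 in ventricles, and Pdgfrb, the β receptor, by -0.38 ± 0.11 and -0.33 ± 0.077 (adjusted P = 0.0488 and 0.0272, both under the fold limit).

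**Figure D4:**
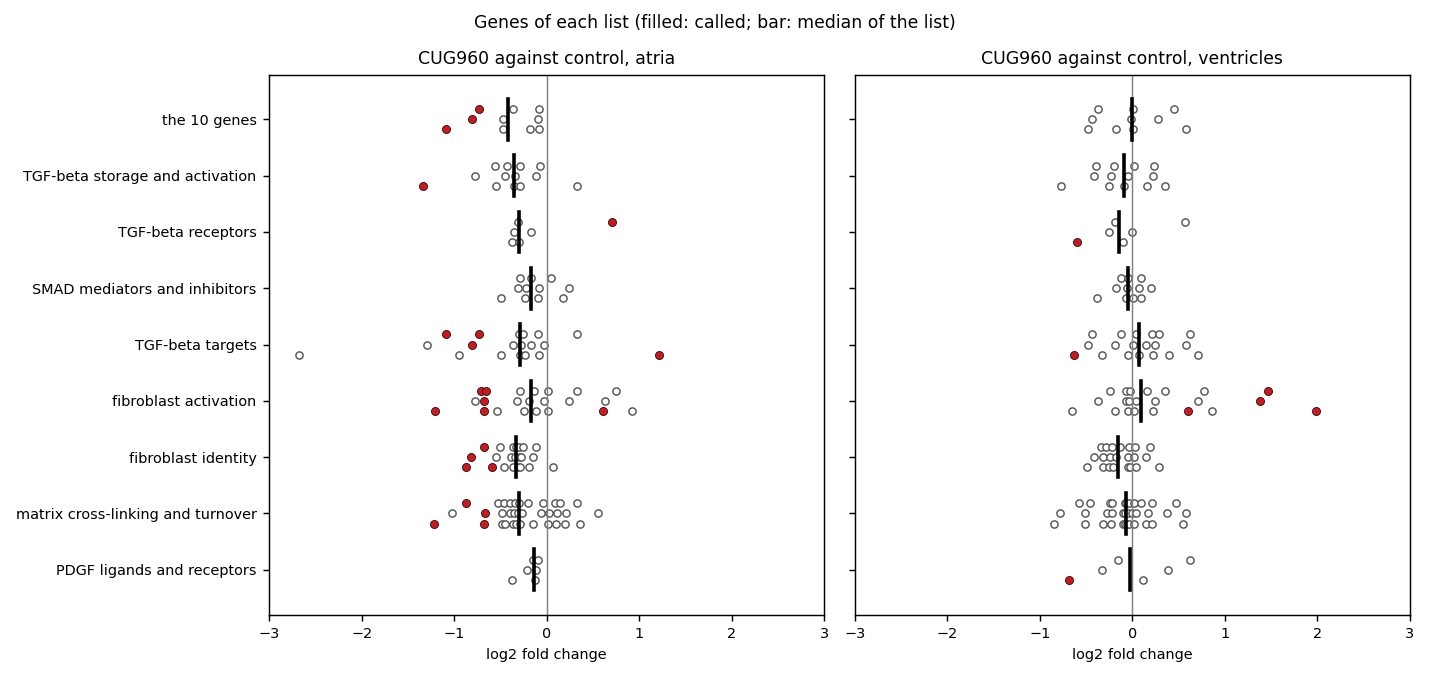
Log2 fold change of CUG960 against control (x axis) for the genes of each list (y axis), in atria on the left and ventricles on the right; filled points were called and the bar is the median of the list. The median of the 10 genes is -0.41 in atria and -0.0023 in ventricles, and the filled fibroblast activation genes lie mostly below 0 in atria and all above 0 in ventricles.

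The chamber differences of these lists did not all run with those of the 10 genes. In controls 47 of the 117 were lower in ventricles (40.2%, against 18.5% of all genes) and 13 higher (11.1%, against 16.5%). In CUG960 hearts 36 were lower (30.8%, against 17.3%) and 19 higher (16.2%, against 15.8%). The genes named here had the smallest P values in each direction. Lower in ventricles were Fbln1, a basement membrane and elastic fiber gene (log2 fold change -2.50 in controls and -2.00 in CUG960 hearts), Lgals3 (-3.91 and -2.73), the ligand Pdgfc (-3.12 and -2.42), Timp2 (-1.33 and -1.10), the inhibitory Smad6 (-2.36 and -1.88) and the integrin subunit Itgav (-1.30 and -1.15). Higher in ventricles were Scx, a transcription factor of tendon and fibroblasts (4.03 and 3.71), the ligand Pdgfb (1.54 and 1.60), Fap, the fibroblast activation protein (2.04 and 2.38), and the prolyl hydroxylase P4ha2 (1.23 and 1.19). Cilp (2.47 and 4.09) and Meox1 (1.08 and 1.49) were higher too, and Pdgfd was higher in controls (0.99) and at 0.41 in CUG960 hearts. Timp2, another inhibitor of metalloproteinases, had the chamber direction of Timp1, whereas Pdgfb had the opposite direction to Pdgfra.

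Markers of other cell types were read beside these results. All 10 endothelial markers had log2 fold changes below 0 in each tissue, and 9 of 10 in atria without V123 or V333. Pecam1 (-0.71 ± 0.10, adjusted P = 0.00431) and Tek (-0.62 ± 0.11, adjusted P = 0.00833) fell in atria and Fabp4 (-0.60 ± 0.12, adjusted P = 0.0137) in ventricles. Their summed level was 1011, 1002 and 841 CPM in control atria and 673, 779 and 695 CPM in CUG960 atria, and 1737, 1608 and 1579 CPM in control ventricles and 1135, 1165 and 1270 CPM in CUG960 ventricles, with Fabp4 the most abundant. Of the calls, Tek in atria and Fabp4 in ventricles were each lost without V119, V327 or V333. The genotypes did not overlap in this sum in either tissue. All 12 macrophage and leukocyte markers were below 0 in both tissues and none was called. In atria this rested on V334, without which 2 of the 12 were below 0 and the median was 0.047, and in ventricles between 6 and 12 were below 0 with a mouse left out, with Ptprc called without V119 (-0.87, adjusted P = 0.0362). Their sum was 416, 372 and 762 CPM in control atria and 407, 472 and 397 CPM in CUG960 atria, which overlapped, with Lyz2 the most abundant.

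Of 10 smooth muscle and pericyte markers, Tagln rose in atria, and Tagln (-0.63 ± 0.17), Mylk (-0.71 ± 0.15) and Myh11 (-0.65 ± 0.17) fell in ventricles. Tagln ran against most of its list in atria, where 7 of these 10 markers had log2 fold changes below 0 (median -0.34). In ventricles 9 of these markers did (median -0.37). Their sum was 946, 867 and 948 CPM in control ventricles and 719, 743 and 697 CPM in CUG960 ventricles, without overlap, with Rgs5 the most abundant. Of 12 cardiomyocyte markers, Tnnc1 (-0.65 ± 0.10) and Ckm (-0.60 ± 0.080) fell in atria and Ryr2 (-0.67 ± 0.13) in ventricles. In atria 10 of the 12 had log2 fold changes below 0, with a median of -0.24. The sum of the 12, led by Myh6, was 61620 ± 1303 CPM in control and 59990 ± 319 CPM in CUG960 atria (SD, n = 3). Myh6 made up 41.4% of this sum in control and 49.7% in CUG960 atria. It was at 25950, 25300 and 25280 CPM in control and 30430, 29520 and 29450 CPM in CUG960 atria. Of 6 atrial cardiomyocyte markers, Nppa, the atrial natriuretic peptide, rose in ventricles (1.3008 ± 0.31, adjusted P = 0.0314) and Bmp10 fell there (-4.06 ± 0.50, adjusted P = 0.00161). In ventricles the median of these 6 turned on V123, whereas Bmp10 was called with each mouse left out. The median log2 fold change of the 6 was 0.52 with V123 and -3.06 without it. Leaving V123 out put 5 of the 6 below 0 and 4 were called, all lower. Those were Bmp10, Myl7 (-5.44), Sln (-4.05) and Myl4 (-2.06). Nppa was not called then, nor without V120, V327 or V333. Bmp10 was at 2.43, 2.39 and 3.75 CPM in control ventricles and at 0.0343, 0.275 and 0.208 CPM in CUG960 ventricles, against 1036 to 2016 CPM in atria. Adipocyte markers, led by Cfd, were low, with sums of at most 24.9 CPM, and Plin1 (-1.86 ± 0.33), Cfd (-1.92 ± 0.30) and Retn (-2.05 ± 0.47) fell in ventricles. Of these 6 markers, 5 were called there without V123, which added Adipoq (-2.26) and Cidec (-2.68), and 2 with any other mouse left out. The 8 mesothelial markers, led by Upk3b, summed to 299 ± 13.9 CPM in control atria and 7.73 ± 0.506 CPM in control ventricles, and none was called between genotypes. Of 6 Schwann cell markers, led by Cnp, none was called in atria. Of the 4 ventricular cardiomyocyte markers, led by Myl2, 3 were tested in atria, where Hey2 (-0.67 ± 0.19) fell. Hey2 completes this count and was chosen once its value had been seen, as were Mfap5 (-0.67) and Fap (-0.71) of fibroblast activation and Spon2 (-1.22) of matrix turnover, which fell in atria, and Mfap4 (0.60), which rose in ventricles. With each mouse left out, the ventricular calls of Bmp10, Plin1 and Cfd held in 6 of 6 fits, those of Ryr2 in 3, Nppa, Mylk and Mfap4 in 2, and Myh11 and Retn in 1, and the atrial calls of Tnnc1 in 5, Ckm in 4, Mfap5 and Spon2 in 2, and Fap and Hey2 in 1. No marker list had a gene at 0 counts in a whole group. Mitochondrially encoded genes took 20.5%, 19.6% and 20.5% of the counts in control ventricles and 18.4%, 15.3% and 17.3% in CUG960 ventricles, without overlap, and 11.8% to 12.2% in control atria against 10.9% to 11.98% in CUG960 atria, with overlap. The part of these shifts in the results of the 10 genes was not tested.

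**Figure D5:**
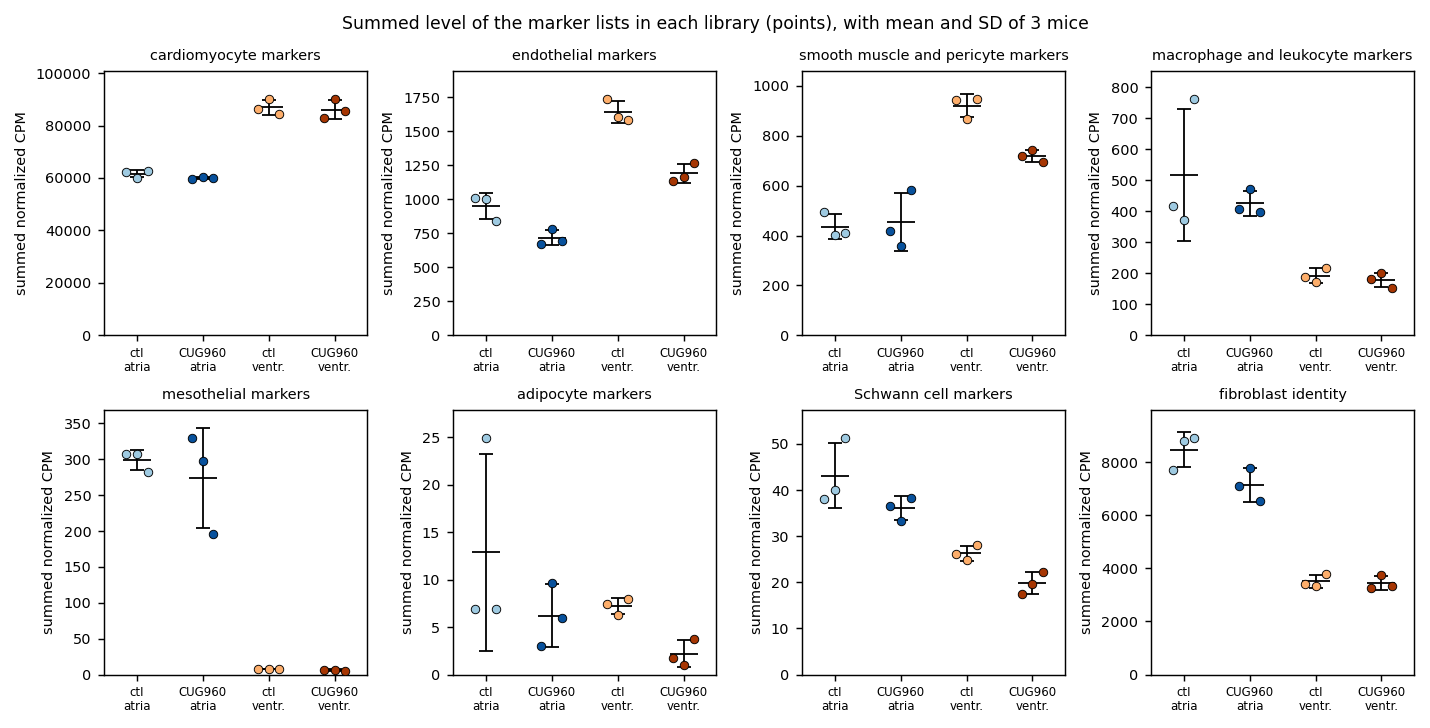
Summed normalized CPM (y axis, from 0) of marker lists of 7 other cell types and of the fibroblast identity list, by group (x axis), with 1 point per library and the mean and SD of 3 mice. Endothelial sums are lower in CUG960 mice in both tissues without overlap, mesothelial sums are about 299 CPM in control atria and 7.73 CPM in control ventricles, and V334 is the high control library of the macrophage and leukocyte sum at 762 CPM.

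Levels of the 10 genes were compared with each other. Over the 12 libraries, which share tissue and genotype, the 45 pairs of genes had a median Pearson's r of 0.693 on log2 CPM, which ranged from -0.123 (Tgfb1 with Tgfb3) to 0.975 (Tgfb3 with Timp1), with 41 of the 45 above 0. Once the group means were removed, the median was 0.179, from -0.485 (Postn with Tcf21) to 0.791 (Postn with Pdgfra), and 30 of the 45 were above 0. The genes most like each of them over the 12 libraries, out of 13112 genes whose mean CPM was 1 or more, were read as a description. Tgfb3 was most like the atrial genes Mybphl (r = 0.993) and Nppa (0.991), and Timp1 most like Serping1 (0.986) and Igfbp6 (0.985). Dcn was most like Il18r1 (0.988) and Car13 (0.987), Tcf21 like Tmem45a (0.985) and Rab33a (0.985), Pdgfra like Sh3pxd2b (0.979) and Lbr (0.968), and Fn1 like Matn2 (0.976) and Pml (0.974). The closest genes were less close for Lox (Carmil1, 0.946), Tgfb2 (Itsn1, 0.944, and Slc1a5, 0.9405), Postn (Proser1, 0.940, and Grin2c, 0.938) and Tgfb1 (Myo9b, 0.855, and Gm10031, 0.825).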

How the data were processed

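Counts were analyzed from poly(A) RNA-Seq (TruSeq Stranded mRNA, Illumina NovaSeq) of atria and ventricles from 6 mice. The authors aligned reads to GRCm38 and deposited RSEM (v1.3.1) expected counts per gene, already whole numbers (0 of the values were not whole), for 51826 entries. The table has 92 repeated symbols, which were kept as separate entries. Genes with low counts were removed with filterByExpr, libraries were scaled by TMM and edgeR (v4.0.16, R v4.3.3) quasi-likelihood tests were run with Benjamini-Hochberg adjustment over all genes tested. Genotypes were compared within each tissue. Chambers and the interaction were tested in a fit of 4 group means over the 12 libraries. A gene was called with an adjusted P below 0.05 and at least a 1.5-fold difference, except that the interaction had no fold limit. DESeq2 (v1.42.0), other scalings, filters and fold limits, the mouse as a block and each mouse left out were tried. Figures were drawn with matplotlib (v3.10.9) in Python (v3.11.15). Levels were given as CPM, also divided by merged exon length (GENCODE M21).

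The genes and lists were chosen with earlier results of these data known. Named genes were the 10 genes, a chosen group of collagens, receptors and other targets (some results are not reported here), up to 15 called list genes per tissue and for the interaction by smallest P value, and 5 per direction for chambers. Libraries held 116127966 to 160676189 counts, and in each tissue the depths of the genotypes were separate. Atria and ventricles of 1 mouse share the mouse by label. Deviations from group means correlated between the 2 tissues with r from 0.043 to 0.316 in the 6 same-mouse pairs and from -0.382 to 0.316 in 30 pairs of different mice. Replicates of each group differed beyond counting noise. The scripts were tested on simulated data.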

Additional observations from a re-analysis of the deposited data

Results flagged for a closer look

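The effect of CUG960 differed between ventricles and atria in the interaction test for Tgfb2, with a ventricular minus atrial log2 fold change of 0.81 (adjusted P = 0.0234 by edgeR's quasi-likelihood test), and in atria every CUG960 library was below every control while in ventricles every one was above. Among the list genes named, the difference passed the same test for Ltbp1 (0.69, adjusted P = 0.0156), Sfrp2 (2.05, adjusted P = 0.00417), Lgals3 (1.17, adjusted P = 0.0321) and Nppa (1.72, adjusted P = 0.0494), all with the higher log2 fold change in ventricles. It passed with the lower value in ventricles for Bmp10 (-4.10, adjusted P = 0.00208) and Tagln (-1.85, adjusted P = 0.0445). With each of the 6 mice left out in turn, the difference passed in 6 fits for Sfrp2 and Bmp10, in 3 for Ltbp1, in 2 for Nppa and Tagln, in 1 for Tgfb2 and in 0 for Lgals3 (adjusted P up to 0.15). Groups of 3 are too small for a test of single outlying libraries.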

How the results depend on the processing

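Over the alternatives other than leaving out a mouse, 1175 of 1248 values of the 138 log2 fold changes of named genes kept their direction and side of the threshold, 5 reversed, 51 were no longer past the threshold and 17 passed it. Without a fold limit, 5 of the 10 genes were called in atria, and all genes called numbered 2573 in atria, 1680 in ventricles, 10268 between chambers in controls and 9952 in CUG960 mice. With log2 1.5 as the lowest fold change, 0 of the 10 were called in atria, 3 between chambers in controls and 1 in CUG960 mice, and all genes called numbered 216, 199, 2462 and 2361. For the interaction, 2 of the 10 genes passed by DESeq2, 2 without the filter and 2 when every library needed 10 counts, and 3 passed with the mouse as a block against 1 without it. By DESeq2 660 of all genes passed. The block gave no other change of call among the 10 genes. Values near 0 changed sign: Tgfbr1 in ventricles was 0.003 with upper quartile scaling and with no filter and 0.001 without mitochondrially encoded genes, and Tgfb2 between chambers in CUG960 mice was -0.003 with upper quartile scaling and -0.002 with at least 10 counts. The causes were not tested.

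With each mouse left out in turn, between 1 and 3 of the 10 genes were called in atria (where 3.77% to 4.97% of all genes were called), between 0 and 1 in ventricles (3.25% to 4.25%) and between 0 and 1 for the interaction, for which between 74 and 131 of all genes passed (0.396% to 0.702%). Log2 fold changes that changed sign ranged in atria from -0.272 to 0.04 for Timp1 and from -0.296 to 0.205 for Tnc. In ventricles they ranged from -0.114 to 0.121 for Postn, -0.064 to 0.035 for Dcn, -0.11 to 0.113 for Tcf21, -0.097 to 0.421 for Acta2, -0.032 to 0.154 for Col1a2, -0.076 to 0.14 for Tgfbr1, -0.147 to 0.015 for Tgfbr3, -0.157 to 0.034 for Smad7 and -0.416 to 0.385 for Cthrc1. Between chambers they ranged from -0.113 to 0.139 for Tgfb1 in controls and from -0.008 to 0.05 for Tgfb2 in CUG960 mice, and the interaction from -0.163 to 0.08 for Tgfb1 and from -0.02 to 0.23 for Pdgfra. CPM levels moved by less than 1 SD for 40 of 40 gene and group values with RLE and with upper quartile scaling, and 26 of 40 moved by more without scaling. With 3 mice a group, an exact permutation test cannot go below 0.1. Timp1 and Lox, the least abundant of the 10 genes in ventricles, had the widest intervals of the CUG960 effect in that tissue.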
